A study of Mus musculus with 9 samples.

Results

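The urea cycle and the genes around it that handle nitrogen were followed in livers lacking the nuclear receptor corepressors SMRT alone or SMRT and NCoR together. The set was defined by name as 9 genes: Nags, Cps1, Otc, Ass1, Asl, Arg1, Gls2, Glul and Tat. A gene counted as measured where a probe set of the array carried its symbol and no other, and the probe set with the highest mean over the arrays was used. By this rule 8 of the 9 were measured, among 22180 genes in all. Gls2, the liver glutaminase, had 0 such probe sets and is not analysed here.

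Each of the 9 arrays held RNA from the liver of 1 mouse. All mice were euthyroid females of mixed 129SV/B6 background, 7 to 9 weeks old and on standard chow. The 3 controls were double floxed (SMRT and NCoR fl/fl). A liver-specific knockout of SMRT defined the 3 SMRT KO mice, and one of both SMRT and NCoR the 3 double KO mice. The Cre used and the NCoR allele of the SMRT KO mice are not given in the labels, and a group lacking NCoR alone was not analysed here. Values are log2 expression values made with RMA, so a difference of 1 is a 2-fold difference, and levels of different probe sets cannot be set against each other. Whole liver was used, in which fewer cells of a type and less RNA per cell cannot be told apart. The 7 measured hepatocyte markers had means over the 9 arrays of 12.2 for Ttpa to 13.9 for Alb, while array medians of olfactory and vomeronasal receptor genes, taken as the dim end of the scale, were 3.73 to 4.13.

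The urea cycle turns ammonia, released when amino acids are broken down, into urea that the kidney can excrete. NAGS makes the cofactor that CPS1 needs to fix ammonia in the mitochondrion, OTC joins the product to ornithine, and in the cytosol ASS1 and ASL build arginine, from which ARG1 releases urea. Hepatocytes near the portal vein run this cycle, and a thin layer near the central vein traps the ammonia that escapes by making glutamine with GLUL. TAT, the tyrosine aminotransferase, starts the breakdown of tyrosine and is a classic target of glucocorticoids and glucagon.

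Corepressors reach DNA through nuclear receptors, many of which bind a short half-site, so the bases before the start of the members were searched for it. RefSeq promoter sequences (GRCm38.p6) were at hand for 5 of the 9 genes (Ass1, Glul, Nags, Otc and Tat). The 250 bases before each listed start were searched for AGGTCA and GGGTCA on both strands, and matches are in capitals. Ass1 is shown because it had the largest difference of the set in double KO livers, Glul because it had the largest in SMRT KO livers, and Nags because it holds a pair of matches and had a small difference in each comparison.
Ass1, chr2:31470020-31470269, plus strand: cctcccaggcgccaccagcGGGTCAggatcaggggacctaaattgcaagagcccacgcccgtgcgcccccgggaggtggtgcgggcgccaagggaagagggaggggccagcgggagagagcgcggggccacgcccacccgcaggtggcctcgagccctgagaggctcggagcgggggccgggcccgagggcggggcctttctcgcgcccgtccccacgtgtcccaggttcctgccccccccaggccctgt
Glul, chr1:153899679-153899928, plus strand: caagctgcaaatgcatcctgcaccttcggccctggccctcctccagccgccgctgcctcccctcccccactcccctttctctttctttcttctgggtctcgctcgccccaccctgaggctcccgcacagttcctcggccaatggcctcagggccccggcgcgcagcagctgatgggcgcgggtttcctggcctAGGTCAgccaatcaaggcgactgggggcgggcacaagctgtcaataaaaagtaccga
Nags, chr11:102145263-102145512, plus strand: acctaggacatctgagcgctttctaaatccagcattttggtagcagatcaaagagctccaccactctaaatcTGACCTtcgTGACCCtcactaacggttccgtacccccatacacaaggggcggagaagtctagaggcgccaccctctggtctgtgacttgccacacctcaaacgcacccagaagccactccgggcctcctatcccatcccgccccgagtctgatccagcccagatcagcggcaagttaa
Ass1 held GGGTCA at positions -231 to -226 from the listed start, and Glul held AGGTCA at -57 to -52. Nags held both motifs on the minus strand, AGGTCA at -178 to -173 and GGGTCA at -169 to -164. Tat, not printed, held GGGTCA at -20 to -15, and Otc had 0 matches in its window. Of 32851 RefSeq windows of the same length, 23.8% held at least 1 of these motifs. A match is a run of letters and was not tested as a binding site.

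Loss of SMRT alone left the measured genes without a called difference. With SMRT KO set against control, 0 of 8 members passed limma's test at an adjusted p of 0.05 (Benjamini-Hochberg over all genes), beside 0.00451% of all genes (1 gene, which was higher). At an unadjusted p under 0.05 there were again 0 of 8, beside 6% of all genes (3.34% lower). Fold changes were below 0 for 4 members, beside 49.6% of all genes, and above 0 for 4, with a median log2 fold change of -0.003 beside 0.001 over all genes. The 3 values of each group overlapped for all 8 members, where 4.36% of all genes were lower and 3.8% higher without overlap.

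In double KO livers Ass1 and Tat had the lowest values relative to control, and 0 of 8 members passed. With double KO set against control, 0 of 8 passed limma's test beside 0.843% of all genes (0.523% higher and 0.32% lower). An unadjusted p under 0.05 was found for 2 of 8, Ass1 and Tat, both lower, beside 10.8% of all genes (5.43% lower). Fold changes were below 0 for 7 of 8 members, beside 48.6% of all genes, with a median log2 fold change of -0.13 against 0.004 over all genes. Between the knockout groups, 0 of 8 passed limma's test beside 1.19% of all genes (0.748% higher and 0.437% lower in double KO). Ass1 and Tat were again the 2 members with an unadjusted p under 0.05, beside 10.5% of all genes (4.81% lower). The median there was -0.05, with 5 of 8 below 0, beside 49.4% of all genes. These comparisons share mice, so they are not separate observations. With 8 genes, 1 or 2 members make a large share, and these counts are a description of the set.

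**Figure D1:**
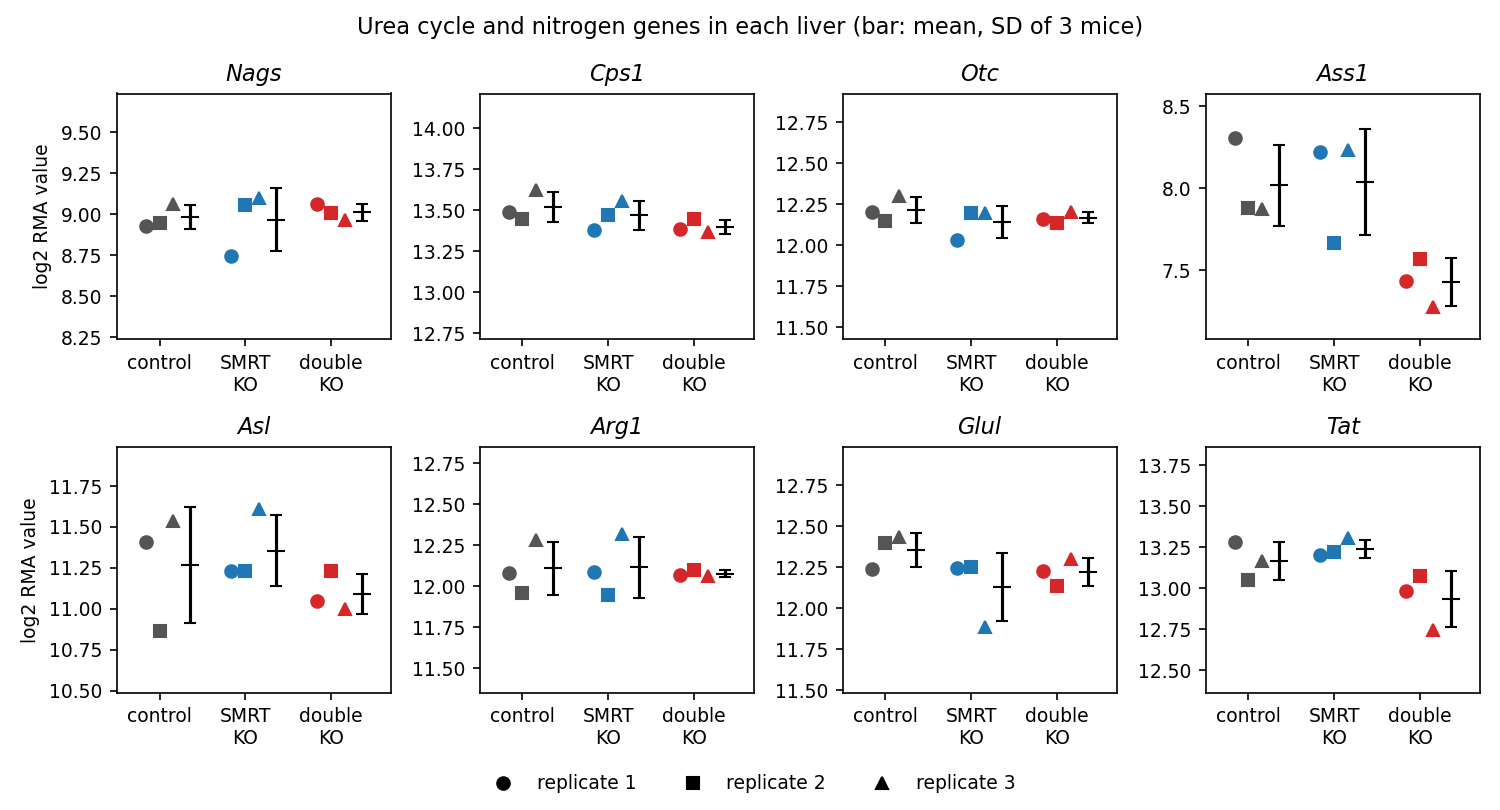
Log2 RMA values of the 8 measured genes (y axis, each panel spanning 1.5 log2 units around its own mean) in control, SMRT KO and double KO livers (x axis). Each symbol is a mouse, its shape gives the replicate name, and the bar gives the mean and SD of 3 mice. The 3 double KO values of Ass1 (7.28 to 7.57) lie below all 6 other livers, and those of Nags, Cps1, Otc and Arg1 lie among the other livers or at their lower edge.

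The mitochondrial steps had log2 fold changes between -0.12 and 0.04 over the 3 comparisons. Nags, the source of the CPS1 cofactor, read 8.93, 8.95 and 9.07 in control replicates 1 to 3, 8.75, 9.06 and 9.10 in SMRT KO livers and 9.07, 9.01 and 8.97 in double KO livers. SMRT KO replicate 1 was the lowest of the 9 and the groups overlapped. Its log2 fold change in double KO against control was 0.03 with a standard error of 0.0955 (limma, adjusted p = 0.95), and the 95% interval ran from 1.14-fold lower to 1.19-fold higher. A second probe set of Nags had group means of 7.40 in control, 7.41 in SMRT KO and 7.39 in double KO livers.

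Cps1, which commits ammonia to the cycle, read 13.49, 13.44 and 13.62 in control, 13.38, 13.47 and 13.56 in SMRT KO and 13.38, 13.45 and 13.37 in double KO livers. Double KO replicates 1 and 3 lay below all controls, and replicate 2 was just above the lowest control. The log2 fold change was -0.12 in double KO (standard error 0.0729, adjusted p = 0.626) and -0.05 in SMRT KO livers (adjusted p = 0.959). The intervals allowed a fall of at most 1.22-fold in double KO and 1.16-fold in SMRT KO livers.

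Otc, which forms citrulline, read 12.20, 12.15 and 12.30 in control, 12.03, 12.20 and 12.20 in SMRT KO and 12.16, 12.14 and 12.20 in double KO livers. The groups overlapped, and SMRT KO replicate 1 was the lowest of the 9. The log2 fold change was -0.05 in double KO (standard error 0.0717, adjusted p = 0.874) and -0.07 in SMRT KO livers (adjusted p = 0.93), and the intervals allowed a fall of at most 1.16-fold and 1.18-fold.

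The cytosolic steps held the largest difference. Ass1, the argininosuccinate synthase, read 8.30, 7.88 and 7.87 in control livers. It read 8.22, 7.66 and 8.23 in SMRT KO livers and 7.44, 7.57 and 7.28 in double KO livers. All 3 double KO livers were below all 6 others, while the other groups overlapped, with SMRT KO replicate 2 nearest to the double KO livers. Group means were 8.02 ± 0.248 in control, 8.04 ± 0.325 in SMRT KO and 7.43 ± 0.145 in double KO livers (log2 values, SD, n = 3 each).

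Ass1 was 1.51-fold lower in double KO than in control livers, and this did not pass over all genes. On the log2 scale the difference was -0.59 (standard error 0.172, 95% interval -0.98 to -0.20, limma adjusted p = 0.216), rank 718 of 22180 by p. Against SMRT KO livers it was -0.61 (95% interval -0.998 to -0.22, adjusted p = 0.181), and between SMRT KO and control 0.02 (95% interval -0.37 to 0.41, adjusted p = 0.996). Groups that do not overlap, with the double KO group lower, were found in 1 of 8 members against control (7.25% of all genes) and in 2 of 8 against SMRT KO (6.21% of all genes). Higher in the double KO group without overlap were 0 of 8 in both, beside 7.73% and 7.54% of all genes. Over the 15 alternatives of processing and samples the adjusted p ranged from 0.107 to 0.449 against control and from 0.0516 to 0.456 against SMRT KO, with log2 fold changes of -0.66 to -0.45 and -0.80 to -0.51. Of the 11 Kupffer cell and macrophage markers, Marco was the dimmest at a mean of 6.45. All 11 were lower in the mean in double KO than in SMRT KO livers (median -0.23), beside 49.4% of all genes. An unadjusted limma p under 0.05 was found for 5 of these 11 there, beside 10.5% of all genes. In SMRT KO against control 0 of the 11 were below 0 (median 0.24), beside 49.6% of all genes. There 5 had an unadjusted p under 0.05, beside 6%. Limma called 0 of the 11 in each comparison. The median log2 fold change of these markers in double KO against control was -0.000317, and their part in the Ass1 result was not tested. Their mean log2 level was 8.36 to 8.59 in control, 8.57 to 8.82 in SMRT KO and 8.36 to 8.54 in double KO livers. The mean log2 level of the 7 hepatocyte markers was 13.21 to 13.32 in control, 13.21 to 13.28 in SMRT KO and 13.19 in all 3 double KO livers, with 0 of 7 called by limma in each comparison. Of all genes 0.00451%, 0.843% and 1.19% were called. At an unadjusted p under 0.05 there were 0, 2 and 1 of these markers, each lower in double KO, beside 6%, 10.8% and 10.5% of all genes. In each double KO comparison 3 of 7 were lower without overlap and 0 higher. The shares of all genes that were lower so were 7.25% and 6.21%. Among 9 stellate cell markers 1 fell in both double KO comparisons, beside 0.32% and 0.437% of all genes. It was Lrat, a retinol acyltransferase, with group means of 8.86, 8.97 and 7.06 in control, SMRT KO and double KO livers. Some of the 9 went the other way. In double KO against control 6 were below 0 and 3, Col1a1, Col3a1 and Pdgfrb, above 0 (median -0.19). Against SMRT KO 7 were below 0 and 2, Col1a1 and Col3a1, above 0 (median -0.13). The highest log2 fold changes were 0.31 and 0.38, and limma called 0 of the 9 as higher. The part of these markers in the Ass1 result was not tested.

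Asl, which splits argininosuccinate into arginine and fumarate, read 11.41, 10.87 and 11.53 in control, 11.23, 11.23 and 11.61 in SMRT KO and 11.05, 11.23 and 11.00 in double KO livers. Control replicate 2 was the lowest of all 9, below each double KO liver, and the SD of the controls was 0.355. The log2 fold change was -0.18 in double KO (standard error 0.172, 95% interval -0.56 to 0.21, adjusted p = 0.798) and 0.09 in SMRT KO livers (adjusted p = 0.977). Without control replicate 2 the double KO value was -0.38 and without control replicate 3 it was -0.04, with adjusted p between 0.305 and 0.978 over the alternatives.

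Arg1, the arginase that releases urea, read 12.08, 11.96 and 12.28 in control, 12.09, 11.95 and 12.32 in SMRT KO and 12.07, 12.10 and 12.06 in double KO livers. The double KO livers lay inside the range of both other groups, with an SD of 0.019 against 0.163 in control and 0.187 in SMRT KO livers. Its log2 fold change was -0.03 in double KO (95% interval -0.27 to 0.21, adjusted p = 0.955) and 0.008 in SMRT KO livers (adjusted p = 0.998).

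**Figure D2:**
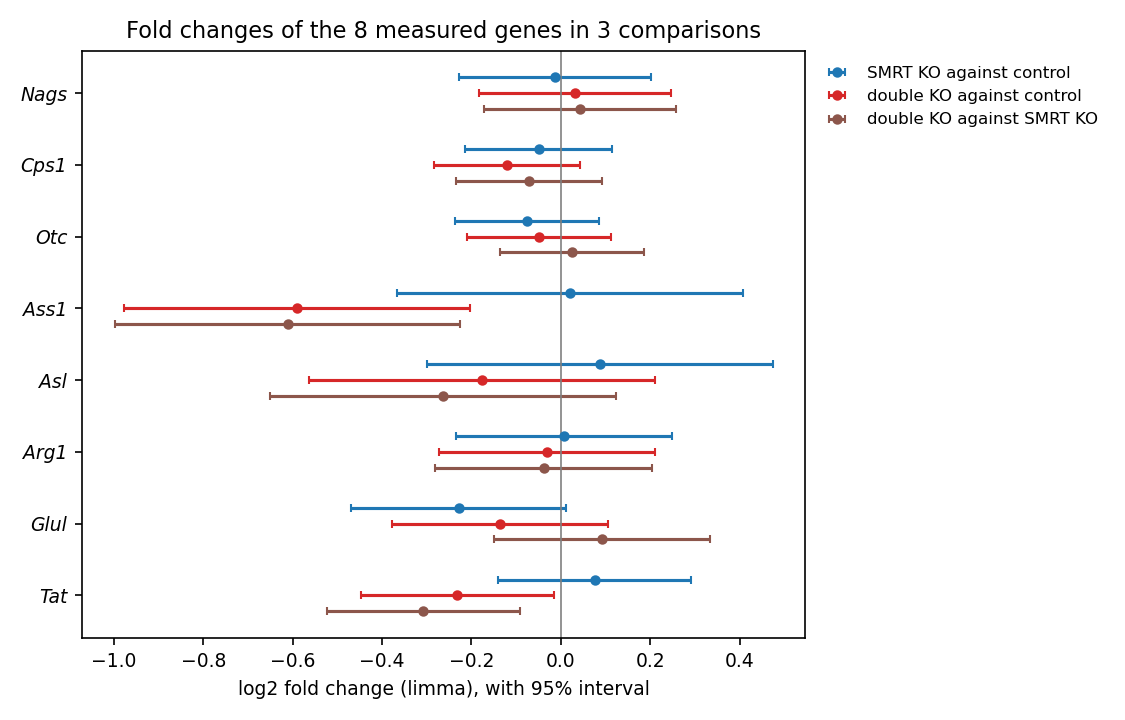
Log2 fold changes from limma (x axis, points) with their 95% intervals (bars) for the 8 measured genes (y axis) in the 3 comparisons, shown in colours. The intervals of Ass1 and Tat in both double KO comparisons lie below 0 before adjustment over all genes, and the other intervals include 0.

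Outside the cycle, Glul had its smallest p in SMRT KO against control and Tat between the knockout groups. Glul, the glutamine synthetase of the perivenous layer, read 12.24, 12.40 and 12.44 in control, 12.25, 12.25 and 11.89 in SMRT KO and 12.23, 12.13 and 12.30 in double KO livers. SMRT KO replicate 3 stood below the other 8 livers, and the groups overlapped. The log2 fold change was -0.23 in SMRT KO (standard error 0.107, 95% interval -0.47 to 0.01, adjusted p = 0.845), the smallest p of the set in that comparison, and -0.11 without SMRT KO replicate 3. In double KO against control it was -0.14 (adjusted p = 0.731). A second, dimmer probe set of Glul had group means of 6.26, 6.12 and 6.37 in control, SMRT KO and double KO livers, so the double KO group was the highest there.

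Tat, the tyrosine aminotransferase, read 13.28, 13.05 and 13.16 in control, 13.20, 13.22 and 13.30 in SMRT KO and 12.98, 13.07 and 12.75 in double KO livers. The double KO livers were below all SMRT KO livers, while double KO replicate 2 was above control replicate 2. The log2 fold change was -0.31 against SMRT KO (standard error 0.0959, 95% interval -0.52 to -0.09, adjusted p = 0.24) and -0.23 against control (95% interval -0.45 to -0.02, adjusted p = 0.423). Adjusted p-values over the alternatives were 0.133 to 0.523 and 0.3 to 0.675. Without double KO replicate 3, the lowest of the 9, the value against control was -0.14. In SMRT KO against control it was 0.08 (adjusted p = 0.949).

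Within groups, several members were high or low in the same liver. For Cps1, Asl and Arg1 the highest liver of each group was the same, namely control replicate 3, SMRT KO replicate 3 and double KO replicate 2. Control replicate 3 held the highest value of its group for 6 of 8 members, beside 29.6% of all genes. SMRT KO replicate 3 did so for 7 of 8, beside 33.3% of all genes, with Otc all but equal in replicate 2, and it was the lowest for Glul. Double KO replicate 3 held the lowest value for 6 of 8 members, beside 32.3% of all genes, and control replicate 2 for 5 of 8, beside 34.3%. Of the 7 hepatocyte markers, 2 were highest in control replicate 3, 5 in control replicate 2 and 4 in SMRT KO replicate 3, which thus held the most highest values of its group for the markers too. The spread from lowest to highest liver within a group, on the log2 scale, was 0.0794 to 0.178 for Cps1, 0.0354 to 0.37 for Arg1, 0.229 to 0.668 for Asl and 0.289 to 0.57 for Ass1. The widest of these, Asl in control livers, exceeded the largest difference between group means in the set (Ass1, -0.61). No test was made of this pattern.

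**Figure D3:**
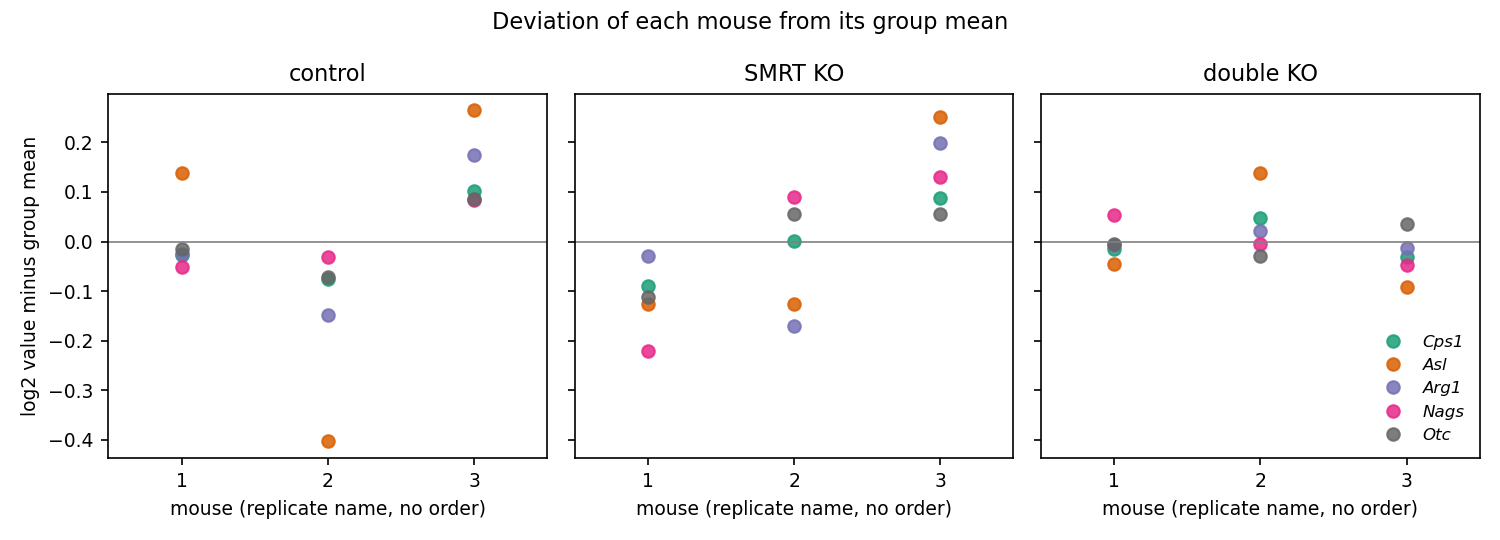
Log2 value of each mouse minus its group mean (y axis) for Cps1, Asl, Arg1, Nags and Otc (colours) in the 3 mice of each group (x axis, replicate names without order). In control replicate 3 and SMRT KO replicate 3 all 5 genes lie above the group mean, while in control replicate 2 all 5 lie below it. Ass1, Glul and Tat are not drawn, and some of their values went the other way. Below the group mean were Ass1 (-0.147) and Tat (-0.001) in control replicate 3 and Glul (-0.241) in SMRT KO replicate 3. Glul was above it (0.040) in control replicate 2. The remaining values of these genes in those livers lay on the same side as the 5.

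The genes whose values over the 9 arrays followed Ass1 most closely were listed, since Ass1 had the largest moderated F of the set (8.16, adjusted p = 0.239). The 5 with the highest Pearson r among all genes were 1700017N19Rik (r = 0.967), Spata2l (0.965), Ppargc1a (0.953), Wsb1 (0.947) and Clec1b (0.944), each over 9 arrays. These are the highest of 22180 values and are given as a description. 1700017N19Rik had group means of 3.65 to 3.76, at the dim end of the scale. Clec1b, a C-type lectin receptor, was lower in double KO than in SMRT KO livers (log2 fold change -1.02, adjusted p = 0.0366) and did not pass against control (-0.78, adjusted p = 0.122). The other 4 did not pass in any of the 3 comparisons. Among the other members Tat was the nearest to Ass1 (r = 0.843), followed by Asl (0.589).

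Ppargc1a, a coactivator of fasting genes in the liver, was also in the list of regulators. It read 8.91, 8.39 and 8.77 in control, 8.97, 8.21 and 9.25 in SMRT KO and 7.61, 7.94 and 7.68 in double KO livers. All 3 double KO livers were below the 6 others. Neither double KO comparison passed: the log2 fold change was -0.94 against control (standard error 0.244, adjusted p = 0.159) and -1.07 against SMRT KO livers (adjusted p = 0.0889). Without SMRT KO replicate 2, its lowest liver outside the double KO group, it passed in both (adjusted p = 0.0407 and 0.016).

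Of 13 measured regulators of nitrogen genes, limma called 0 in each comparison. In double KO livers 12 of 13 had a fold change below 0 against control, beside 48.6% of all genes, with a median of -0.16, and 5 had an unadjusted p under 0.05, beside 10.8% of all genes. The smallest p in that comparison was that of Foxo3, a FOXO transcription factor under insulin control (log2 fold change -0.50, standard error 0.108, adjusted p = 0.0862). In SMRT KO livers 11 of 13 were below 0 (median -0.04), beside 49.6% of all genes, and 3 had an unadjusted p under 0.05, beside 6%. The smallest p was that of Ppara, the receptor of the fasting response to fatty acids (-0.22, adjusted p = 0.826).

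Beyond the set, 74 of 81 listed genes for nitrogen transport, glutamate and aminotransferase steps and amino acid breakdown were measured, and Slc38a2 was the only one of them called. Slc38a2, the amino acid transporter SNAT2, read 11.72, 11.61 and 11.63 in control, 11.84, 11.54 and 11.56 in SMRT KO and 10.97, 10.91 and 11.03 in double KO livers. All 3 double KO livers were below the 6 others, while control and SMRT KO livers overlapped. It fell 1.6-fold in double KO against control livers (log2 fold change -0.68, standard error 0.0881, adjusted p = 0.0102) and 1.6-fold against SMRT KO livers (adjusted p = 0.00761), while SMRT KO and control livers differed by -0.0014. The call against control was lost without double KO replicate 2 (adjusted p = 0.0632, log2 fold change -0.65). The call against SMRT KO held in all 15 alternatives.

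**Figure D4:**
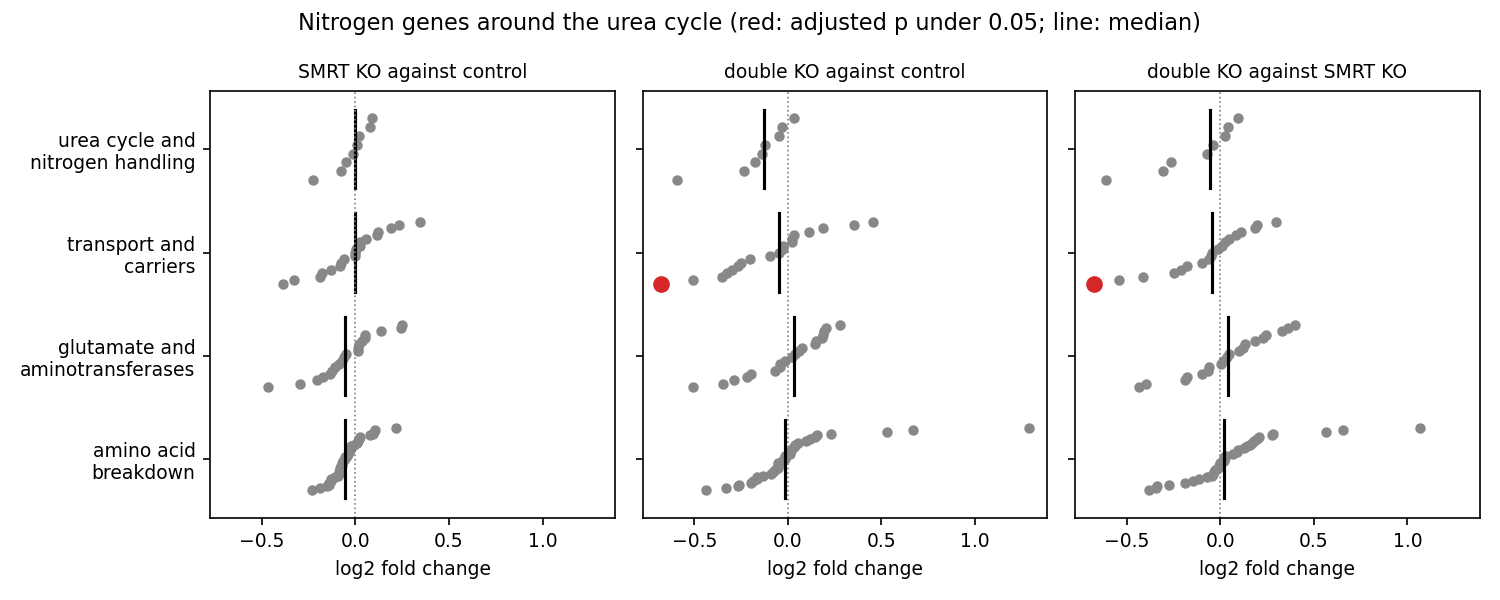
Log2 fold changes (x axis) of the 8 measured members and of the genes in 3 wider nitrogen lists (rows, genes ordered by value) in the 3 comparisons. Each point is a gene, the vertical line is the median of its list, and the large red points, Slc38a2 in both double KO comparisons, mark an adjusted p under 0.05.

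Among the 19 transport and carrier genes 1 fell, 0 rose and 18 did not pass in double KO livers against control (median -0.05). Of all genes 0.32% fell and 0.523% rose there. Against control, 3 of the 19 in SMRT KO and 8 in double KO livers had an unadjusted p under 0.05. Between the knockout groups 5 did, and the shares of all genes were 6%, 10.8% and 10.5%. The 8 were 3 higher and 5 lower. Over the 74 measured wider genes these counts were 6, 20 and 18, with 9 of the 20 higher and 11 lower. Rhbg, an ammonia channel of perivenous hepatocytes, had the smallest p of the transport and carrier list in SMRT KO against control (log2 fold change -0.39, standard error 0.121, adjusted p = 0.727). The following were chosen after their values were seen. Slc25a15, which carries ornithine into the mitochondrion for OTC, had -0.27 in double KO against control (adjusted p = 0.442). Slc7a2, which takes up arginine and ornithine, had -0.35 (adjusted p = 0.458) and, against SMRT KO, -0.54 (adjusted p = 0.189). Others of the 8 went the other way. The 3 higher in double KO against control were Slc25a2 (0.19, limma adjusted p = 0.432), Slc25a44 (0.36, 0.204) and Slc1a4 (0.46, 0.22).

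Of 20 measured genes of glutamate, aminotransferases and bicarbonate supply, limma called 0 in each comparison. At an unadjusted p under 0.05 there were 1 in SMRT KO and 6 in double KO livers, each set against control (medians -0.06 and 0.03), and 7 between the knockout groups (median 0.04), beside 6%, 10.8% and 10.5% of all genes. The 6 were 3 higher and 3 lower. Aldh18a1, which starts proline and ornithine synthesis from glutamate, had the smallest p against control in both SMRT KO (log2 fold change 0.24, adjusted p = 0.669) and double KO livers (0.28, adjusted p = 0.155). Sirt5, a mitochondrial deacylase known to act on CPS1, had 0.36 between double KO and SMRT KO livers (adjusted p = 0.0763) and passed without SMRT KO replicate 3 (adjusted p = 0.0204).

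Of 35 measured genes of amino acid breakdown, limma called 0 in each comparison. The counts at an unadjusted p under 0.05 were 2 in SMRT KO and 6 in double KO livers against control (medians -0.05 and -0.02) and 6 between the knockout groups (median 0.02), beside the same 6%, 10.8% and 10.5% of all genes. Of those in double KO livers against control, 3 were higher and 3 lower. Aspg, which splits asparagine into aspartate and ammonia, read 10.31, 10.02 and 10.48 in control, 10.14, 10.16 and 10.54 in SMRT KO and 11.01, 11.00 and 10.81 in double KO livers. All 3 double KO livers were above the 6 others, with log2 fold changes of 0.67 against control (standard error 0.139, adjusted p = 0.0731) and 0.66 against SMRT KO (adjusted p = 0.0653). Against SMRT KO it passed without SMRT KO replicate 3 (adjusted p = 0.0421) and without control replicate 2 (adjusted p = 0.0497). Csad, of taurine synthesis from cysteine, lay farthest to the right in the plot of wider genes and was chosen after its values were seen; its log2 fold change in double KO against control was 1.29 with a standard error of 0.509 (adjusted p = 0.394). Kmo, of tryptophan breakdown, had the smallest p of the list in SMRT KO against control (-0.19, adjusted p = 0.801).

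Because the urea cycle and glutamine synthesis lie in different zones of the liver lobule, genes of the periportal and perivenous zones were counted too. Of 11 measured periportal genes 2 fell and 0 rose in double KO against control (median -0.20), and the same 2, Pck1 and Etnppl, fell against SMRT KO (median -0.03). Of all genes 0.32% fell and 0.523% rose against control, and 0.437% fell against SMRT KO. Pck1, of glucose production, read 13.10, 12.88 and 13.04 in control, 13.16, 13.00 and 13.10 in SMRT KO and 12.33, 12.30 and 12.33 in double KO livers. The double KO values lay apart from the others, with log2 fold changes of -0.68 against control (adjusted p = 0.00395) and -0.76 against SMRT KO (adjusted p = 0.00219), called in all 15 alternatives.

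Etnppl, an enzyme that releases ammonia from phosphoethanolamine, read 10.08, 9.43 and 10.06 in control, 10.43, 10.44 and 11.24 in SMRT KO and 8.64, 8.38 and 8.57 in double KO livers. The 3 groups did not overlap, with SMRT KO livers highest and double KO livers lowest. It was 2.5-fold lower in double KO than in control livers (log2 fold change -1.32, standard error 0.235, adjusted p = 0.0389) and 4.51-fold lower than in SMRT KO livers (adjusted p = 0.00367). SMRT KO livers had 0.85 against control, which did not pass (adjusted p = 0.595). The call against control was lost without SMRT KO replicate 1 or 2, control replicate 1 or 3 or each double KO mouse (adjusted p = 0.0539 to 0.174), and the call against SMRT KO held in all 15 alternatives.

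Of 16 measured perivenous genes 2 fell and 0 rose in double KO against control (median -0.07), and 1 fell against SMRT KO (median 0.06), beside the same shares of all genes. Gulo, of vitamin C synthesis, fell by 0.64 on the log2 scale against control (adjusted p = 0.00508), called in all 15 alternatives. It also had the smallest p of this list in SMRT KO against control (-0.30, adjusted p = 0.48), which did not pass. Nor did double KO against SMRT KO pass (-0.33, adjusted p = 0.0714). The groups did not overlap for Gulo, with control livers highest and double KO livers lowest. Cyp1a2, a cytochrome P450, fell by 0.41 against control (adjusted p = 0.0239) and by 0.39 against SMRT KO (adjusted p = 0.0259). The first of these calls was lost without control replicate 1 or 3 or each double KO mouse (adjusted p = 0.0837 to 0.0983), and the second without each SMRT KO or double KO mouse (adjusted p = 0.0621 to 0.0937). Both were also lost when only the 2 groups compared were fitted (adjusted p = 0.0644 and 0.0555). With SMRT KO against control, limma called 0 of 11 periportal and 0 of 16 perivenous genes, and 1 and 2 had an unadjusted p under 0.05, beside 6% of all genes. In double KO against control 6 periportal genes (2 higher, 4 lower) and 8 perivenous genes (3 higher, 5 lower) did, beside 10.8% of all genes. Against SMRT KO these were 4 (0 higher, 4 lower) and 8 (4 higher, 4 lower), beside 10.5%. Called genes were found in both zones, and a difference between the zones was not tested.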

How the data were processed

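Liver RNA (200 ng per mouse) was measured on Affymetrix whole-transcript arrays. The authors deposited log2 values, and the submitters' processing notes name RMA, without a version. RMA brings all arrays to a common distribution, which would hide a shift of most genes in 1 direction. Array medians were 5.96 to 6.02, and array correlations 0.987 to 0.992 within groups and 0.983 to 0.989 between groups. Groups came from the sample titles, with 0 columns left over. The genotypes were not checked here.

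Of 41345 probe sets, 23521 had exactly 1 symbol in the platform annotation, 1814 had several and 16010 were not listed. The brightest probe set per gene left 22180 genes, without a filter. They were fitted in limma 3.58.1 (R 4.3.3; lmFit, contrasts.fit, eBayes, two-sided) over all 9 arrays, without a block, with 6 residual and 3.36 prior degrees of freedom. P-values were adjusted by Benjamini-Hochberg over all genes within a comparison, and adjusted p under 0.05 was called. The number of mice limits the precision; an exact permutation test of 3 against 3 cannot go below p = 0.1 and was not used. On simulated data with 200 changed genes among 22180, 62.5% of 1.5-fold and 90.5% of 2-fold changes were recovered for double KO against control. The changed genes were drawn at random from all genes, with independent normal values. These shares are averages over such genes and do not give the recovery for the members.

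The members, lists and tests were chosen with earlier results of these data known. The rule for named genes took all members, each listed gene called in a comparison, the smallest p of each list and comparison, and the 5 genes most like the member with the largest F. Genes outside it are marked. Other choices tried were the 2 compared groups alone, the replicate number as a block, a filter on dim genes, cyclic loess, the mean of probe sets, a trended robust prior, and leaving out each mouse. Same-numbered mice were not paired: the correlation of their deviations from the group means was -0.0845 to 0.117 over 9 pairs.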

Additional observations from a re-analysis of the deposited data

How the results depend on the processing

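The count of called members was 0 in all 3 comparisons under each of the 15 alternatives, and 0 of the 360 refitted member values was called. With the replicate block the counts of called members were 0 as well, and the count over all genes was 2 for SMRT KO against control, against 1. The block also ended the calls of Cyp1a2 (adjusted p = 0.063 against control and 0.0749 against SMRT KO), as did fitting only the 2 groups compared (0.0644 and 0.0555).

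Counts over all genes moved more. Fitting only the 2 groups gave 0 genes instead of 1 for SMRT KO and 109 instead of 187 for double KO, each against control, and 124 instead of 263 between the knockout groups. Leaving out dim genes, which tests fewer genes, gave 2 for SMRT KO against control and raised the wider nitrogen genes called from 1 to 2 in double KO against control (Aspg, adjusted p = 0.0406, was added) and from 1 to 3 between the knockout groups (Aspg, 0.0346, and Sirt5, 0.0385, were added). Foxo3 (0.0477) passed there against control, and Ppargc1a (0.049) and Gulo (0.0346) against SMRT KO. Gulo also passed with the trended prior (0.0465). Leaving out 1 mouse gave 0 to 23 genes overall for SMRT KO (0 without SMRT KO replicate 1 or 3, 23 without control replicate 2) and 61 to 179 for double KO, each against control, with 61 to 91 without control replicate 1 or 3 or any double KO mouse. Between the knockout groups it gave 101 to 234, with 101 to 169 without SMRT KO replicate 1 or 2 or any double KO mouse. It gave 0 to 1 wider nitrogen genes in double KO against control (0 without double KO replicate 2) and 1 to 5 in double KO against SMRT KO (5 without SMRT KO replicate 3, 2 without control replicate 2).

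No value that was called changed sign. Values near 0 did when 1 mouse was left out. In SMRT KO livers against control the log2 fold changes then ranged from -0.0936 to 0.00184 for Cps1, -0.0769 to 0.21 for Ass1, -0.11 to 0.22 for Asl, -0.0922 to 0.095 for Arg1, -0.0782 to 0.0975 for Nags, -0.0984 to 0.0538 for Slc38a2 (0.0145 with cyclic loess), -0.12 to 0.11 for Aspg, -0.10 to 0.42 for Ppargc1a and -0.0724 to 0.00527 for Cyp1a2. In double KO livers against control they ranged from -0.11 to 0.0564 for Arg1 and -0.0738 to 0.0517 for Ppara. Between the knockout groups they ranged from -0.0302 to 0.0536 for Otc, -0.12 to 0.0613 for Arg1, -0.0665 to 0.11 for Nags, -0.0278 to 0.15 for Glul and -0.0236 to 0.0247 for Kmo. The median fold change of all genes moved by less than 0.01 with cyclic loess. The dimmest member, Ass1, had a double KO mean of 7.43, where receptor gene medians were 3.73 to 4.13. These are levels of different probe sets, so they give no measure of signal over background. Ass1 had only 1 probe set, and how well it responds was not tested.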
